A study of Homo sapiens with 10 samples.

Results

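CpG-poor promoters were the start sites of protein-coding genes that lie in DNA with few CpG dinucleotides. Their members were the canonical transcription start sites (TSSs) of protein-coding genes on the 22 autosomes for which the 1000 bp centered on the TSS held less than 0.40 of the CpG dinucleotides that its C and G content would give by chance (CpG observed/expected). Olfactory receptor genes were left out, which removed 403 further starts below this limit. The rule used only the GRCh38 sequence and the annotation, and it found 4334 members among 18695 promoters, or 23.2%. They were set against 12787 CpG-rich promoters with a ratio of at least 0.60 and 1574 promoters in between. The median ratio was 0.221 in the CpG-poor group (quartiles 0.162 and 0.289) and 0.803 in the CpG-rich group (quartiles 0.727 and 0.877), and the share of CpG-poor promoters ran from 14.3% of promoters on chromosome 18 to 35.5% on chromosome 21.

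Vertebrate promoters fall broadly into those inside CpG islands, which mostly serve genes used in nearly every cell, and those outside them, which mostly serve genes used in few cell types. CpG dinucleotides outside islands are usually methylated and are lost by mutation over evolution. CpG-poor promoters more often carry a TATA box, the element bound by TATA-binding protein a short distance upstream of the start, whereas CpG-island promoters tend to keep a nucleosome-depleted region (NDR) at the start, followed by a well-placed +1 nucleosome.

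The cells were human induced pluripotent stem cells (hiPSCs) of the line PB010.5, a single line that carries a FUCCI cell cycle reporter in the EEF2 locus. They were permeabilized and digested for 5 min with micrococcal nuclease (MNase), which cuts the DNA between nucleosomes, at 5 concentrations from 0.5 to 10 U (1, 3 and 6 U lay between), and yeast nucleosomal DNA was added to every sample as a spike-in before library preparation. Each digestion gave 1 library, sequenced with 150-bp and with 50-bp reads, which makes 10 samples. The data analysed here were 1 list of nucleosome positions called on pooled libraries, so no value for a single MNase concentration was analysed and there was no replicate.

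Each of the 12921589 positions in the list is an interval of 140 bp with a score, a height in the authors' own units whose scaling is not given in the sources used here. The scores rose in steps of 1.23, their median over the list was 14.8, and the reads behind a score are unknown. Because the promoters are not replicates and the list is single, no test was run and there are no p-values. A difference is described as larger than its spread where it exceeds the SD of that value over the 22 autosomes, and the number of autosomes on each side is given.

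The sequences before the start show what the rule selects. The 200 bases upstream of NANOG, a homeodomain factor of pluripotent cells, of GDF3, a ligand of the TGF-beta family, and of VRTN held 3, 0 and 4 CpG dinucleotides. The 186 bases upstream of SOX2, a pluripotency factor with a CpG-rich promoter shown for contrast, held 19. Each runs 5′ to 3′ up to the base before the TSS, on GRCh38, and capitals mark the CpG dinucleotides.
NANOG at chr12:7789202-7789401, plus strand: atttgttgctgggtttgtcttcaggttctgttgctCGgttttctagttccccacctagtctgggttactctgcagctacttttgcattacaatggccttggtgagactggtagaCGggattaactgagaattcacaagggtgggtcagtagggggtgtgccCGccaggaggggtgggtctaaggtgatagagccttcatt
GDF3 at chr12:7695776-7695975, minus strand: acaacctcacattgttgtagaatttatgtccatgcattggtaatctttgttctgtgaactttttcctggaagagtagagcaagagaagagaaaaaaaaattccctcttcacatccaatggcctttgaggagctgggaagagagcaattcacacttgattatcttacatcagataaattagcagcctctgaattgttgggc
VRTN at chr14:74348271-74348470, plus strand: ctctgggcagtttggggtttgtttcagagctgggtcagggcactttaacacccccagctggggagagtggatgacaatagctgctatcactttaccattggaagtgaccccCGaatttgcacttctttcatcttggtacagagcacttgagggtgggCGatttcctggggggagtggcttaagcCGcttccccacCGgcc
SOX2 at chr3:181711739-181711924, plus strand: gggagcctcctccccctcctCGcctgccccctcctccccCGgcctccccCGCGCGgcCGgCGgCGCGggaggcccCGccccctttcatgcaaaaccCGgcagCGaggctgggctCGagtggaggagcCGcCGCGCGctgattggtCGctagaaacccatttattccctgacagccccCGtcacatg

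TATA motifs were more frequent at CpG-poor promoters. The letters TATAAA or TATATA, read on the strand of the gene and starting 40 to 20 bp upstream of the TSS, were present in 574 of the 4334 CpG-poor promoters, or 13.2%, against 2.65% of CpG-rich promoters and 5.25% of all promoters. The motif letters on the opposite strand in the same window were found in 5.49% of CpG-poor promoters (TATATA reads the same on both strands), and the sense motif in a window 540 to 520 bp upstream in 1.62%. The share with a TATA motif fell from 21.5% at a CpG ratio below 0.1 to 8.85% at 0.3 to 0.4. Over the same range the median GC content of the 1000 bp rose from 42.2% to 53.3%. Among promoters with 45% to 50% GC, the motif was present in 15.3% of CpG-poor and 12.4% of CpG-rich ones. With 50% to 55% GC the shares were 11.9% and 3.99%. The 45 bases upstream of 7 members from different tissues show where the motif sits, with its letters in capitals.
AFP at chr4:73436176-73436220, plus strand: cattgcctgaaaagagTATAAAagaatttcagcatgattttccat
KRT10 at chr17:40822615-40822659, minus strand: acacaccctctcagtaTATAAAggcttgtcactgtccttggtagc
GH1 at chr17:63918840-63918884, minus strand: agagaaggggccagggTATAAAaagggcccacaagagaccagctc
FSHB at chr11:30230969-30231013, plus strand: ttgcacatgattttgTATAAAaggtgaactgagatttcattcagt
CRYGA at chr2:208163590-208163634, minus strand: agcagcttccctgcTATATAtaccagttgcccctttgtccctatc
CYP1A2 at chr15:74748800-74748844, plus strand: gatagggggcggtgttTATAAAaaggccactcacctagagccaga
PRM2 at chr16:11276481-11276525, minus strand: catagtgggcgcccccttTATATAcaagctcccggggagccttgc

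The first comparison asked whether CpG-poor promoters carry an NDR in these hiPSCs. As a group, they did not show one in this list. The values are averages over all members, and single members can differ from them. No expression data were used, so members in use in these cells were not told apart. In the 200 bp before the TSS, midpoints at CpG-poor promoters were 1.05 times as dense as in the flanks, which are the bases 1000 to 1500 bp away on both sides. This upstream log2 ratio was 0.07 (SD 0.0744 over autosomes), and 2 of the 22 autosomes had a negative value. It was 0.22 once positions below the list's median score were left out and 0.19 with each position weighted by its score, both beyond that SD and above 0. Scores rose with GC content, as given below. The GC content of CpG-poor promoters was 47.9% at -200 bp and 53.6% at the TSS, against 45.6% at -1000 bp and 46.8% at 1000 bp. The part of GC content in these values was not tested. At CpG-rich promoters midpoints were 0.800 times as dense as in the flanks, and the upstream log2 ratio was -0.32 (SD 0.101), with a negative value on all 22. The difference, CpG-poor minus CpG-rich, was 0.39 on the log2 scale (SD 0.0870 over autosomes), larger than its spread, and CpG-poor promoters were higher on 22 of 22. With the same choices of positions it was 0.72 and 0.48. Promoters with an intermediate ratio lay between both, at -0.10 with an SD of 0.128.

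The groups were in the same order at the start itself. The lowest smoothed density from 200 bp upstream to 100 bp downstream was 1.00 times the flanks at CpG-poor promoters, 0.765 at intermediate promoters and 0.555 at CpG-rich promoters, where it lay 35 bp downstream of the TSS.

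**Figure D1:**
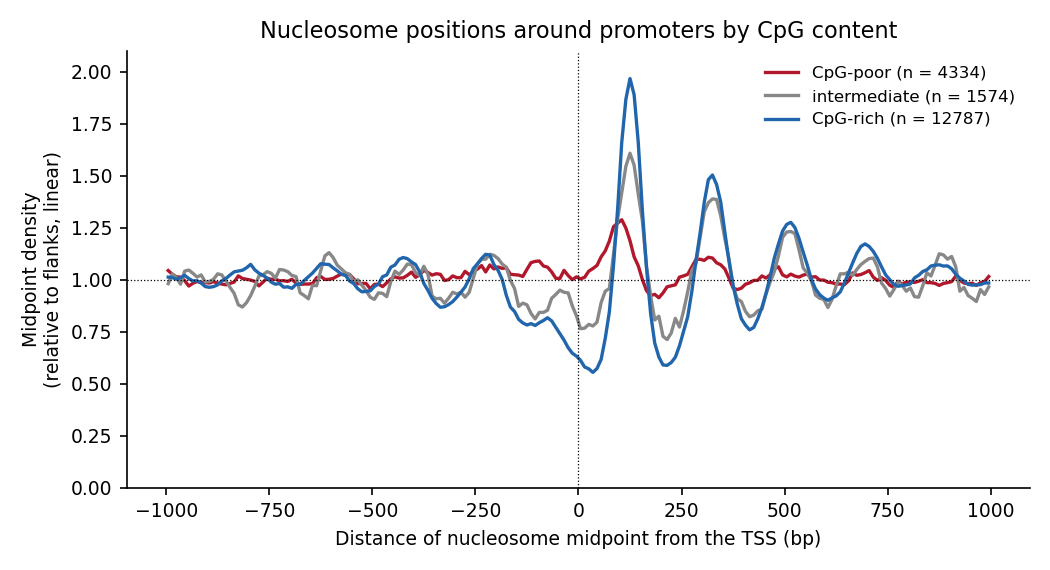
Density of nucleosome midpoints against distance from the TSS in bp, in smoothed 10-bp bins relative to the flanks (1000 to 1500 bp away), for CpG-poor, intermediate and CpG-rich promoters. The CpG-poor line stays near 1 upstream of the TSS and reaches 1.29 at 105 bp, whereas the CpG-rich line falls to 0.555 and then reaches 1.97 at 125 bp.

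Downstream of the start, CpG-poor promoters had a maximum at the place of the +1 nucleosome, but a low one. It reached 1.29 times the flanks (SD 0.183 over autosomes) at 105 bp, against 1.97 (SD 0.102) at 125 bp at CpG-rich promoters, and it was lower on 22 of 22 autosomes. The location was poorly fixed: the maximum lay at 110 bp ± 64.5 (SD, n = 22 autosomes) at CpG-poor promoters and at 125 bp ± 4.86 at CpG-rich promoters, so the 20 bp between the locations is within the spread. The maxima that followed were shallow. At CpG-poor promoters the next ones lay at 315 and 485 bp with 1.11 and 1.06 times the flanks, and at CpG-rich promoters at 325 and 515 bp with 1.50 and 1.28 times the flanks.

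Upstream, the highest density between 400 and 100 bp, the region of the −1 nucleosome, was 1.12 at -225 bp for CpG-rich promoters. For CpG-poor promoters it was 1.09 at -105 bp, the edge of that window. The density just outside the window, at -95 bp, was 1.09 too, so -105 bp is not the location of a separate maximum. Neighboring midpoints within 1500 bp of a CpG-poor TSS were a median of 170 bp apart (quartiles 130 and 220 bp), against 180 bp (quartiles 140 and 220 bp) at CpG-rich promoters. This difference equals the step of the 10-bp grid on which 94.4% of the midpoints near CpG-poor starts sat.

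At single promoters, the base at the TSS lay inside a called position in 2854 of 4334 CpG-poor promoters, or 65.9% (95% Wilson interval 64.4% to 67.2%, counting error only), and in 44.4% of CpG-rich promoters (43.6% to 45.3%), where 50.4% of all promoters did. The difference was 21.4 percentage points (SD 7.31 over autosomes), larger than its spread, and CpG-poor promoters were higher on 21 of 22. Averaged over 6 points more than 1000 bp from the TSS, 63.7% of CpG-poor and 67.4% of CpG-rich promoters were covered. Cover of CpG-poor starts differed from cover in their flanks by less than the SD of start cover over autosomes (6.44 percentage points). The SD of the difference between start and flanks was not computed, so this does not show that they are equal. Along the 500 bp on either side of the TSS, cover of CpG-poor promoters stayed between 62.4% (at 200 bp) and 73.4% (at 75 bp), and that of CpG-rich promoters ran from 44.4% at the TSS to 87.1% at 125 bp.

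The covered CpG-poor starts were not placed on a particular side of their nucleosome, since the midpoint of the covering position lay downstream in 51.0% of the 2854 and upstream in the others. No midpoint fell in the 200 bp upstream in 778 CpG-poor promoters, or 18.0%, against 28.8% of CpG-rich and 26.0% of all promoters, and in 4 windows of the same width in the flanks this share was 20.8% at CpG-poor promoters. Across the start, the nearest upstream and downstream midpoints were a median of 190 bp apart at CpG-poor promoters (quartiles 150 and 250 bp) and 240 bp apart at CpG-rich promoters (quartiles 180 and 320 bp).

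Some members had no positions at all. In 166 of the 4334 CpG-poor promoters no midpoint lay within 1500 bp of the TSS, and 301 had fewer than 8. Such empty promoters were present in every group. Their share was larger among CpG-poor than among CpG-rich promoters, and largest among intermediate ones. Empty promoters numbered 404 of all 18695 promoters, 158 of the 12787 CpG-rich and 80 of the 1574 intermediate ones. Fewer than 8 positions were present at 662 of all, 255 CpG-rich and 106 intermediate promoters. By the start of the symbol, 24 of the 166 empty CpG-poor members were GOLGA genes, 16 DEFB, 12 SPDYE and 9 each PRAMEF and TBC. All are families with close copies in the genome, and blacklisted regions had been removed from the data. Whether copies or blacklisted regions left them empty was not tested. The 4033 CpG-poor promoters with at least 8 positions were covered at the TSS in 70.1%, against 45.2% of such CpG-rich promoters, and 12.7% against 27.5% had no midpoint in the 200 bp upstream.

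**Figure D2:**
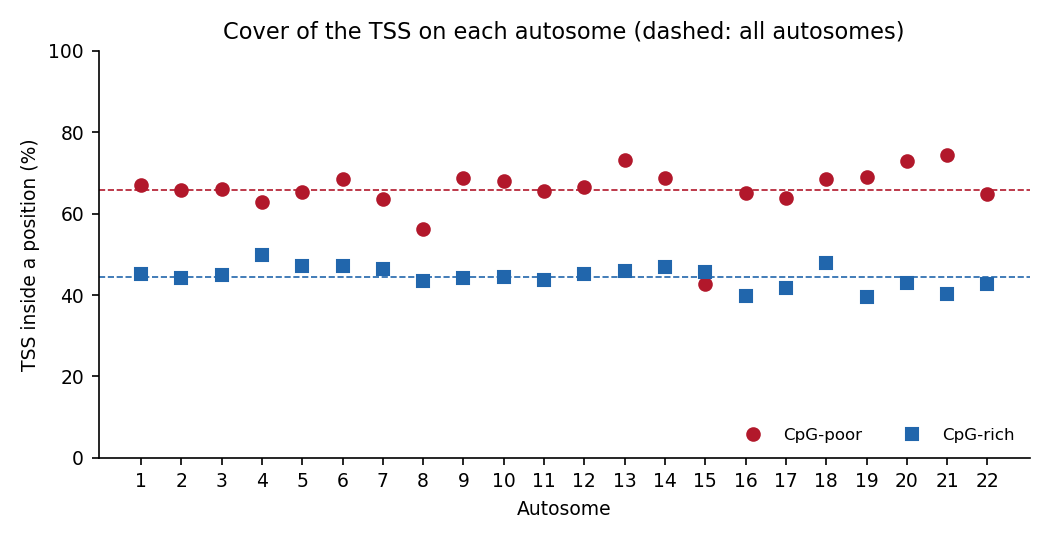
Percentage of TSSs inside a called position for CpG-poor (circles) and CpG-rich promoters (squares) on each autosome, with dashed lines at the values over all autosomes. CpG-poor promoters ran from 42.7% on chromosome 15 to 74.4% on chromosome 21 and were above CpG-rich promoters on 21 of 22 autosomes, with chromosome 15 as the exception.

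Chromosome 15 held 103 CpG-poor promoters, of which 25 had no position, and its cover was 42.7% at CpG-poor against 45.6% at CpG-rich promoters. With promoters of at least 8 positions the values there were 57.9% and 46.8%, and CpG-poor promoters were then higher on 22 of 22 autosomes. Chromosome 8, with 26 such empty members among 153, had the next lowest cover at 56.2%.

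The CpG ratio of the promoter was related to these values in a graded way over the middle of its range. In the 4 bins of CpG-poor promoters, from below 0.1 to 0.3 to 0.4, the TSS was covered in 67.3%, 68.7%, 64.9% and 62.7%, and the upstream log2 ratio was 0.10, 0.08, 0.06 and 0.05. These steps are all smaller than the SD over autosomes. The values then dropped to 61.3% (SD 16.4) and 0.00 (SD 0.260) in the bin from 0.4 to 0.5. They were 52.5% (SD 8.29) and -0.17 (SD 0.117) from 0.5 to 0.6, and 43.6% (SD 7.01) and -0.33 (SD 0.221) from 0.6 to 0.7. Above that they changed little. Of these drops, only that in cover from 52.5% to 43.6% exceeded the SD over autosomes of both its bins. On either side of the limit itself, the 392 promoters from 0.35 to 0.40 were covered in 60.5% and had an upstream log2 ratio of 0.00, and the 312 promoters from 0.40 to 0.45 were covered in 64.1% with a log2 ratio of 0.01. The values on either side of 0.40 thus differed by less than the SD over autosomes.

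**Figure D3:**
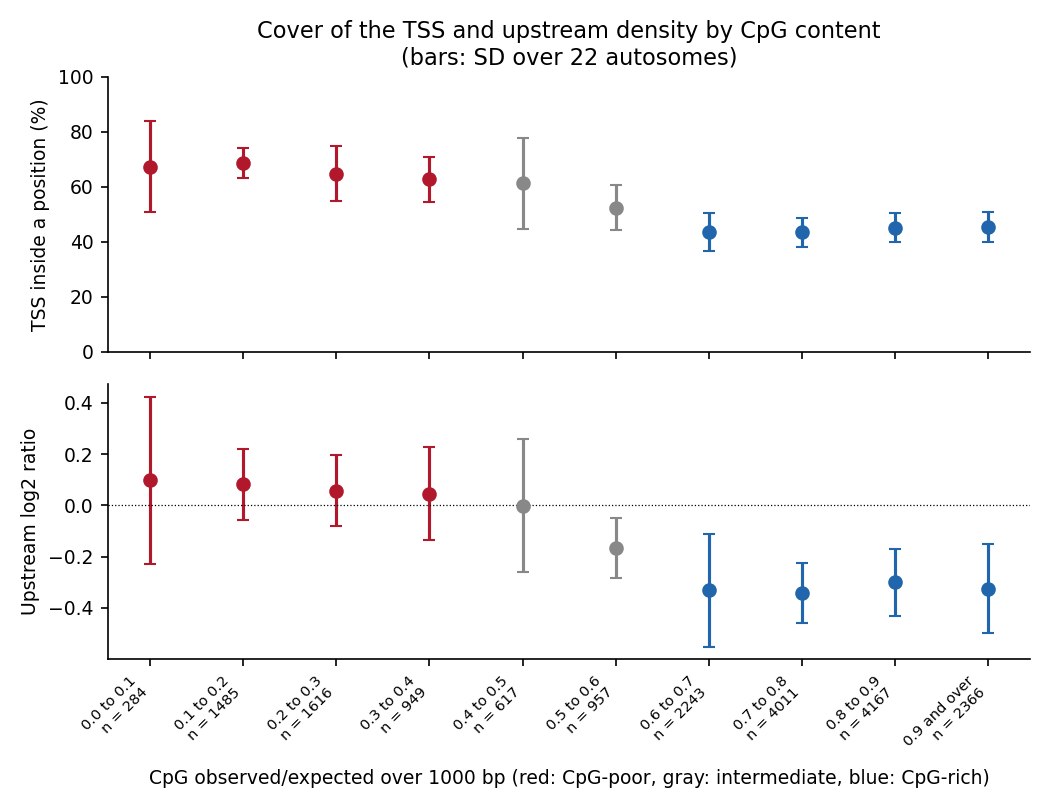
Percentage of TSSs inside a position (top) and log2 of the midpoint density over 200 bp upstream relative to the flanks (bottom) in bins of CpG observed/expected, with error bars for the SD over 22 autosomes. Cover runs from 62.7% to 68.7% in the CpG-poor bins (red) and from 43.6% to 45.4% in the CpG-rich bins (blue).

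GC content differed between the groups, with a median of 49.8% over the 1000 bp at CpG-poor and 65.1% at CpG-rich promoters, so the comparison was repeated within GC strata. From 45% to 50% GC, 63.7% of 711 CpG-poor starts and 39.7% of 242 CpG-rich starts were covered, a difference of 24.0 percentage points (SD 16.7 over autosomes, higher on 19 of 21 with members in both groups). From 50% to 55% GC, the covered shares were 67.6% of 814 and 38.0% of 903, a difference of 29.6 points (SD 22.0, higher on 20 of 22). The upstream log2 ratios were 0.07 (SD 0.130) and -0.36 (SD 0.586) in the lower of these strata and 0.08 (SD 0.182) and -0.29 (SD 0.329) in the upper one. Their differences, 0.44 (SD 0.610, higher on 17 of 21) and 0.37 (SD 0.439, higher on 20 of 22), were thus within their spread. CpG-poor promoters kept a cover of 63.7% to 67.6% at the TSS over 5 strata from below 40% to above 55% GC. Cover in their flanks rose over the same strata. Below 40% GC it was 56.5% in the flanks and 64.3% at the TSS, and above 55% GC 69.2% and 66.0%. The upstream log2 ratio of CpG-poor promoters was highest at 40% to 45% GC (0.14, SD 0.170) and lowest above 55% (-0.01, SD 0.104).

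The scores of the positions, unlike cover, rose from each stratum of GC content to the next. The median score of positions within 1500 bp of CpG-poor starts was 12.3 below 40% GC, 14.8 from 40% to 45%, 17.3 from 45% to 50%, 18.5 from 50% to 55% and 21.0 above 55%. Over all CpG-poor promoters it was 17.3 (SD 1.67 over autosomes), the same as at CpG-rich promoters, whose GC content was higher. Within 45% to 50% GC it was 17.3 at CpG-poor and 14.8 at CpG-rich promoters. This difference was 2.47 (SD 1.10, higher on 20 of 21 autosomes). Within 50% to 55% GC it was 18.5 and 16.0, a difference of 2.47 (SD 1.39, higher on 21 of 22). Both differences were larger than their spread. In the flanks alone, the median scores were 16.0 at CpG-poor and 13.6 at CpG-rich promoters in the lower stratum. In the upper one they were 17.3 and 13.6, so the differences were not limited to the start. The strata match GC content only over the 1000 bp centered on the TSS, whereas these scores reach 1500 bp to either side. The scores differed in where they were high. Positions centered 50 to 150 bp downstream had a mean score of 23.2 at CpG-poor and 28.4 at CpG-rich promoters, those within 50 bp of the TSS 20.0 and 15.0, and those in the flanks 18.2 and 17.3. The position over a covered start had a median score of 19.7 at CpG-poor promoters, above the 13.6 at CpG-rich promoters.

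CpG-poor promoters with a TATA motif had about the same density upstream as those without it, and their downstream maximum lay nearer the start, by a distance within the spread over autosomes. The upstream log2 ratio was 0.06 with and 0.07 without the motif, a difference of -0.01 (SD 0.286 over autosomes), and the TSS was covered in 65.0% and 66.0%. The downstream maximum lay at 75 bp with a height of 1.47 in the 574 promoters with the motif and at 105 bp with 1.28 in the 3760 without, a difference of -30 bp (SD 111 over autosomes, nearer on 16 of 22). In windows of 50 bp, chosen after the profile was seen, the density from 0 to 50 bp was 0.846 with the motif (SD 0.434) and 1.07 without (SD 0.123), and from 50 to 100 bp it was 1.47 (SD 0.441) and 1.15 (SD 0.145). The first difference was -0.224 with an SD of 0.518, within its spread and negative on 17 of 22 autosomes. The second was 0.322 with an SD of 0.452, also within its spread, and positive on 19 of 22. From 100 to 150 bp the densities were 1.06 and 1.21.

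The motif itself was inside a position in 341 of the 574 CpG-poor promoters that had it, or 59.4%. At -27 bp, about where the motif is centered, 67.0% of the CpG-poor promoters without it were covered. In CpG-rich promoters the same shares were 41.0% of 339 with and 47.5% of 12448 without the motif. No SD over autosomes was computed for these shares, so their differences were not set against a spread. Cover in the flanks was 61.8% with and 64.0% without the motif at CpG-poor promoters, and 68.6% and 67.3% at CpG-rich ones.

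**Figure D4:**
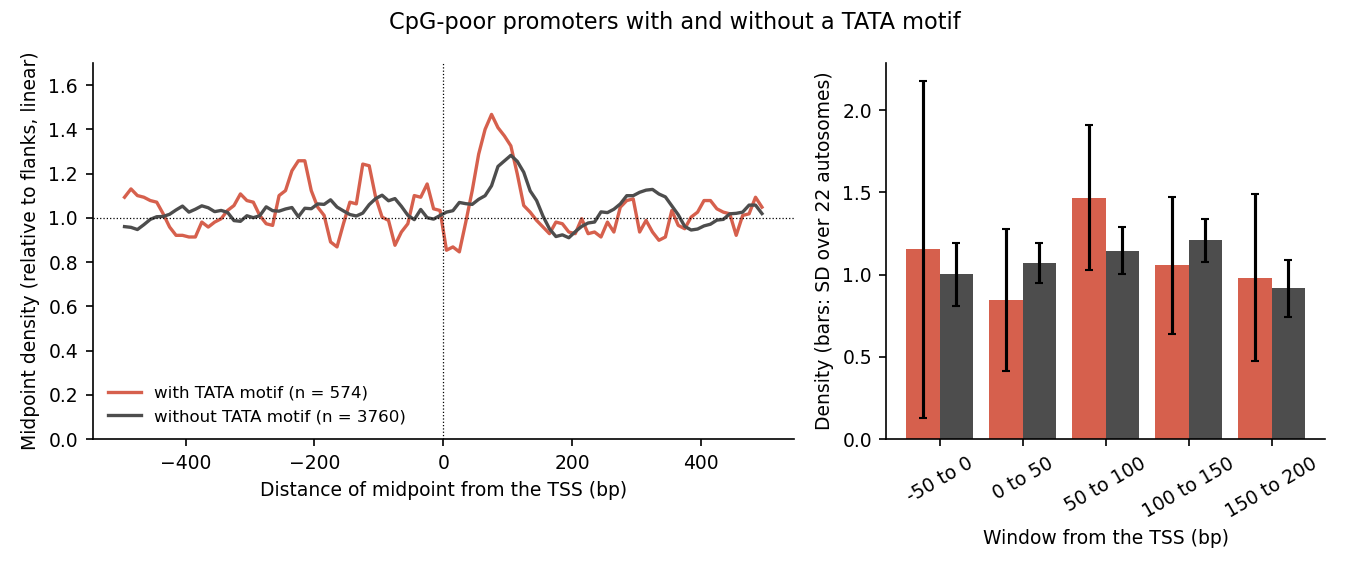
Left, density of midpoints relative to the flanks against distance from the TSS in bp at CpG-poor promoters with and without a TATA motif. Right, the density in 50-bp windows with error bars for the SD over 22 autosomes. The line with the motif peaks at 75 bp with 1.47 and the line without it at 105 bp with 1.28, and the error bars of the groups overlap in every window.

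Other short motifs were counted in the same way. CCAAT on either strand within 250 bp upstream was present in 32.8% of CpG-poor and 33.8% of CpG-rich promoters (34.0% of all). CpG-poor promoters with and without it were covered in 65.9% and 65.8%, and their downstream maxima reached 1.28 and 1.29. GGGCGG, the core of a GC box on either strand in the same window, was present in 16.5% of CpG-poor, 76.9% of CpG-rich and 60.6% of all promoters, and it holds a CpG, so the rule bears on this share directly.

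Among the genes, 7 of the 23 pluripotency genes found in the annotation had CpG-poor promoters, namely NANOG, POU5F1, LEFTY1, LEFTY2, GDF3, VRTN and ZSCAN10, and 4 of these 7 starts were covered, or 57.1%, against 65.9% of all CpG-poor promoters. At NANOG the covering position was centered 40 bp downstream of the start with a score of 25.9, and no midpoint lay in the 200 bp upstream. At GDF3 (ENSG00000184344.4, minus strand, chromosome 12 from 7689784 to 7695775), the start was covered by a position from 7695757 to 7695896 with a score of 25.9, and the next one downstream, from 7695502 to 7695641, lay in coding sequence with a score of 8.64. At ZSCAN10 (ENSG00000130182.8, minus strand, chromosome 16 from 3088890 to 3099295), a zinc finger factor of pluripotent cells, the covering position had a score of only 7.40, and the position 82 bp downstream had 45.7, above 96.8% of the best downstream positions of CpG-poor promoters.

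LEFTY1 and LEFTY2, neighboring genes for secreted inhibitors of Nodal signaling, differed in cover. The LEFTY2 start was covered by a position centered at -52 bp with a score of 30.8. At LEFTY1 the position centered at -86 bp, with a score of 40.7, ended short of the start, and the next midpoint lay 164 bp downstream with a score of 19.7. POU5F1, which encodes OCT4, was not covered, with midpoints at -170 and 120 bp, and VRTN was not covered, with midpoints at -179 and 71 bp. The covered and uncovered starts in this list thus included genes of the same kind, and the scores of their best downstream positions ran from 8.64 to 45.7.

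The heart myosin genes gave a pair with near-equal spacing and unequal scores. MYH6 (ENSG00000197616.13, minus strand, chromosome 14 from 23381982 to 23408273) and MYH7 (ENSG00000092054.13, minus strand, chromosome 14 from 23412740 to 23435660) encode the alpha and beta cardiac myosin heavy chains, which are made in heart muscle. The first position downstream was centered 121 bp from the start at MYH6 and 118 bp at MYH7, in both cases inside an intron over its whole length, with scores of 54.3 and 12.3. The upstream positions were centered at -119 and -92 bp, with scores of 14.8 and 16.0. In the 240 bases before the start of MYH6, shown with the bases inside called positions in capitals, its TATAAA, starting at -30 bp, was outside any position. In the same stretch of POU5F1, 100 of the 240 bases were outside positions, nearly all of them next to the start.
MYH6 at chr14:23408274-23408513, minus strand: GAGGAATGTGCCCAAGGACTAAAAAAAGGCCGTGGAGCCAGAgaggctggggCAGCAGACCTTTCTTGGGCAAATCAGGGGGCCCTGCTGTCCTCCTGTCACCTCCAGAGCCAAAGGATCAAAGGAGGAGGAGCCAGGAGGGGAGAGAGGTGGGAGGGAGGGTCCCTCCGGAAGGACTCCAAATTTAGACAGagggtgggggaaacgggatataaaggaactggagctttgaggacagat
POU5F1 at chr6:31170683-31170922, minus strand: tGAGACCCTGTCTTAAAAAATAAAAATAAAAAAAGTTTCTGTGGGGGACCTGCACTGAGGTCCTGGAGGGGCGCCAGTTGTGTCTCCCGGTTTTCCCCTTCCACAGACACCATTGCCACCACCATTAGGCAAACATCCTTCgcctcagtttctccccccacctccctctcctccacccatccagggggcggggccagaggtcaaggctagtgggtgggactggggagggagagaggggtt

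Genes known for their use in differentiated tissues made up the 10 other lists. Covered starts ran from 11 of 20 epidermal barrier genes (55.0%) to 15 of 19 pancreatic and gut enzymes (78.9%), with 16 of 22 liver plasma proteins (72.7%), 14 of 22 cytokines and chemokines (63.6%), 12 of 18 lymphocyte receptors (66.7%), 11 of 17 muscle and heart contractile genes (64.7%), 11 of 14 peptide hormones (78.6%), 11 of 15 eye and taste genes (73.3%), 11 of 17 cytochromes P450 (64.7%) and 7 of 11 sperm genes (63.6%). All CpG-poor promoters stood at 65.9%, and with 11 to 22 members a list can move by several percentage points through a single gene. TATA motifs, present in 13.2% of all CpG-poor promoters, were counted in the same lists. They were present in 11 of the 14 peptide hormone, 13 of the 22 cytokine and chemokine, 10 of the 19 pancreatic and gut enzyme, 10 of the 20 epidermal barrier and 8 of the 17 muscle and heart promoters. The other lists had 7 of 17 cytochromes P450, 8 of 22 liver plasma proteins, 3 of 15 eye and taste genes, 2 of 11 sperm genes, 2 of 7 pluripotency genes and 0 of 18 lymphocyte receptors.

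The liver genes showed how starts of like function were covered by different positions. At ALB, which encodes serum albumin, the start lay almost at the center of a position, 5 bp from its midpoint, with a score of 21.0, and the next midpoint upstream lay at -365 bp. At AFP (ENSG00000081051.8, plus strand, chromosome 4 from 73431138 to 73456174), the fetal counterpart, the midpoint was 1 bp from the start, the score was 12.3, and the position from 73436152 to 73436291 held 42 bp of 5′UTR and 29 bp of coding sequence and covered the TATA motif. At APOA1, the main protein of high-density lipoprotein, positions centered at -10 and 110 bp lay only 120 bp apart, with scores of 16.0 and 27.1.

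The immune genes included uncovered and covered starts. At IL2, the T cell growth factor, the start was not covered and the midpoints at -112 and 123 bp had scores of 8.64 and 12.3. At IL4, which directs T helper responses, the covering position was centered at -7 bp with a score of 16.0, and at IL3, a growth factor of blood cells, at 67 bp with 22.2. CD3D and CD3E, chains of the T cell receptor complex, were covered by positions centered at -57 and -38 bp with scores of 32.1 and 22.2, and CD2, an adhesion receptor of T cells, by one centered at -8 bp with 14.8.

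Among digestive enzymes, PRSS1 and CPA1, which encode trypsinogen and a carboxypeptidase, were both covered, with scores of 23.4 and 30.8 for the covering positions. Of the keratins, KRT10 was covered with a score of 24.7, and KRT1 and KRT5 were not, with midpoints at -75 and 165 bp for KRT1 and at -98 and 72 bp for KRT5. TNNI3, the cardiac inhibitory troponin, was not covered either, with midpoints at -140 and 105 bp.

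The pituitary hormone genes GH1, PRL and FSHB all carried a TATA motif, starting at -29, -31 and -30 bp. GH1 was not covered and had no midpoint in the 200 bp upstream, with 380 bp between the midpoints across its start, whereas PRL and FSHB were covered by positions centered at -6 and -22 bp, with scores of 19.7 and 16.0. In the eye list, the crystallin genes CRYAB and CRYGA were covered with scores of 32.1 and 19.7.

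Of the drug-metabolizing cytochromes, CYP3A4 and CYP3A5 were covered with scores of 11.1 and 22.2, and CYP1A2 was not, with midpoints at -173 and 97 bp. The protamine genes PRM1 and PRM3, from the sperm list, were covered with 22.2 and 28.4. PRM2, which lies between them, was not, with midpoints at -92 and 128 bp and scores of 41.9 and 28.4.

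**Figure D5:**
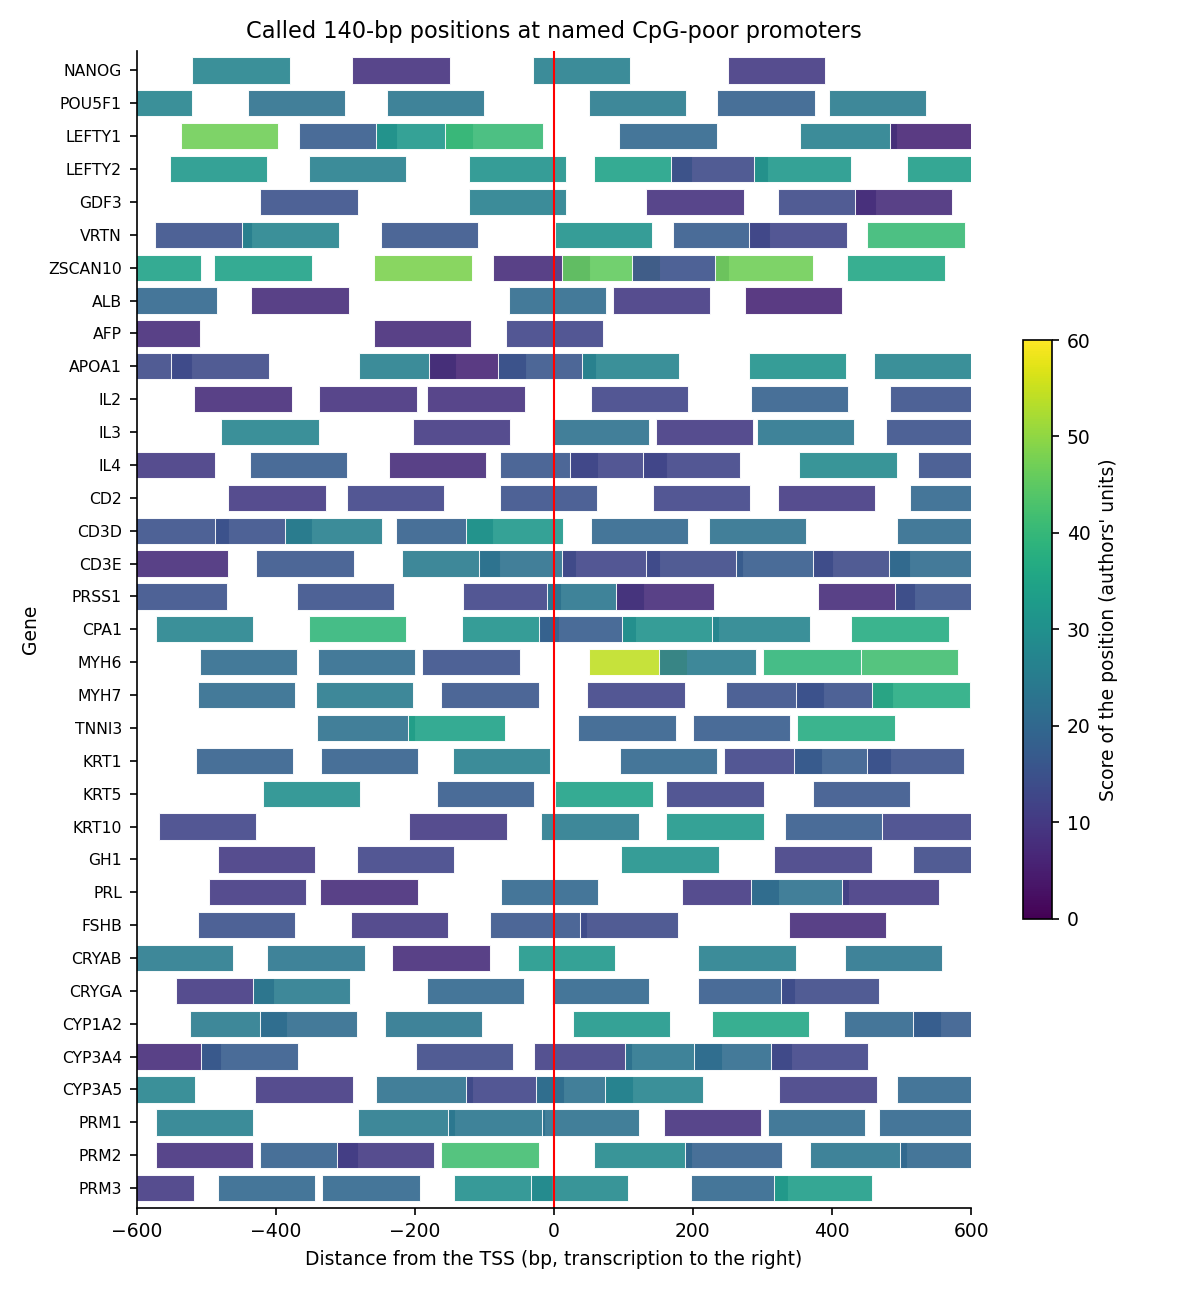
Called 140-bp positions at the named CpG-poor promoters, drawn by distance from the TSS in bp with transcription to the right and colored by score. Starts inside a position (such as NANOG, ALB and AFP) stand beside uncovered ones (such as POU5F1, MYH6 and GH1), and the bright block downstream of MYH6 is the position with a score of 54.3.

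Among members with at least 8 positions, the highest and lowest downstream scores mark the ends of the range by construction and carry no test. The highest score within 300 bp downstream was 77.7 at LLCFC1, centered at 118 bp, followed by TMEM92 with 75.3 at 126 bp, TREML4 and CRHBP with 67.9 at 273 and 237 bp, and DCTN1 with 66.6 at 99 bp. DCTN1 encodes the largest dynactin subunit and is used in many cell types. Its canonical start lies inside the annotated gene (minus strand, chromosome 2 from 74361154 to 74392087), and the position downstream of it, from 74380142 to 74380281, lay in the 5′UTR. The lowest scores were 2.47 at LIPK and SLC28A2 and 4.94 at CD163L1, CPS1 and LCE2C, of which all but CPS1 had their position inside an intron over its whole length.

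Among the same members, the widest distances between midpoints across a start were 1490 bp at TPRX1, 1460 bp at SAA2-SAA4 and TPRX2, 1450 bp at ORM2 and 1440 bp at SIGLEC14. Each of these genes has a close relative nearby (TPRX1 and TPRX2 are a pair, ORM2 has ORM1, the SAA genes form a cluster and SIGLEC14 adjoins SIGLEC5). Reads from near-identical copies cannot be placed on either copy, and their part in these gaps was not tested. Gaps over 400 bp were present in 181 of the 4033 CpG-poor promoters with at least 8 positions, or 4.49%, against 8.23% of such CpG-rich promoters.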

How the data were processed

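Chromatin of PB010.5 hiPSCs was digested at 5 MNase concentrations, with 1 library each. Per the submitters' processing notes, reads were trimmed with Trimmomatic 0.40. The authors aligned them to GRCh38 and used the nucMACC workflow, with blacklisted regions taken out. The runs pooled and the program that called the positions are not given in the sources used here. The deposited list holds a start, an end and a score per position, and this score is a signal that is never negative. Since the list holds no read totals, how many reads lie behind a position is unknown.

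Midpoints (start plus 70 bp) were set against canonical starts of GENCODE release 44, whereas the methods of the study name another release. Olfactory receptors were symbols beginning with OR, a number, letters and a number (415 starts). 1 start with unsequenced bases was left out. Midpoints were counted in 10-bp bins, averaged over 5 neighboring bins and set relative to the mean of the flanks, from 1000 to 1500 bp. CpG-poor promoters that share a start with another member numbered 18.

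The text names all CpG-poor genes of a pluripotency list, the first 3 CpG-poor genes of each of 10 other lists, and the 5 members with the highest score, the lowest score or the widest gap, among members with at least 8 positions. Some items under this rule are not reported here. SOX2 is shown for contrast. The members and the lists were chosen with earlier results of these data known. Sequences were read from the hg38 reference, upstream of the start and outside annotated exons. No test was possible on a single list, and the spread is the SD over 22 autosomes. Shares carry 95% Wilson intervals, which treat promoters as independent. The scripts ran in Python 3.11.15 with pandas 2.3.3, matplotlib 3.10.9, SciPy 1.17.1 and NumPy 2.4.6, and were tested on simulated positions. Alternatives were other positions, weights, CpG limits and windows, start sites, neighbors, GC range and bins.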

Additional observations from a re-analysis of the deposited data

How the results depend on the processing

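Of 63 alternative values for 8 results under 9 alternatives, 54 differed from the reported value by less than its SD over autosomes (for the covered share, by less than its 95% Wilson interval allows), 9 moved beyond that and 0 changed the sign of a value larger than its spread. Leaving out positions below the median score of the list, the upstream log2 ratio at CpG-poor promoters was 0.22, its difference from CpG-rich promoters 0.72, the downstream maximum 1.67 times the flanks, the covered share 49.1% and the median score 22.2. When positions counted in proportion to their score, this ratio was 0.19, the difference 0.48 and the maximum 1.69. With at least 8 positions, 70.1% of starts were covered, outside the Wilson interval but within the SD of 6.44 percentage points over autosomes. Fewer positions and fewer empty promoters enter these by construction. No paired analysis was possible because the pooled list carries no replicate, and no library could be left out for the same reason. The values describe pooled libraries, the 10-bp grid limits locations, and the unknown number of reads limits single scores.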

Other observations

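Gene families, grouped by the start of their symbol after the member counts were seen, are set beside all CpG-poor promoters, of which 65.9% were covered and 13.2% carried a TATA motif. Of the 94 keratin-associated protein genes, which encode matrix proteins of hair, 88 had CpG-poor promoters, with 64 covered (72.7%) and 43 with a TATA motif (48.9%). Keratins had 47 CpG-poor promoters, with 32 covered (68.1%) and 29 with the motif (61.7%), and CC chemokines, which attract white blood cells, had 27, with 19 covered (70.4%) and 14 with the motif (51.9%). All 27 C-type lectin promoters in the CpG-poor group lacked the motif, and 19 of them were covered. The first downstream midpoint lay at a median of 48.5 bp in C-type lectins and 43 bp in interferon alpha genes, against 92 bp in CC chemokines and 112 bp in bitter taste receptors, with quartiles that overlapped (21.2 to 128 bp in C-type lectins and 59.5 to 148 bp in bitter taste receptors). Of the 13 interferon alpha promoters, which lie side by side and have like sequences, 11 were covered.

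Of the families grouped in this way, 2 with close copies had the lowest covered shares. Bitter taste receptors (58.3%), late cornified envelope genes (63.2%) and the cytochrome P450 family (63.9%) were also below the 65.9% of all CpG-poor promoters. The other families were above it, among them the interferon alpha genes (84.6%), which have like sequences too. Of 20 UDP-glucuronosyltransferase promoters, 7 were covered (35.0%), where 17 of the 20 had at least 8 positions, and of 39 beta-defensin promoters, 16 were covered (41.0%), where 22 of the 39 had at least 8 positions. Promoters of the same family share sequence and often a neighborhood, so they are not independent.

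Runs of 8 or more A or T within 200 bp upstream were present in 292 CpG-poor promoters, or 6.74%, against 2.51% of CpG-rich and 3.67% of all promoters. In these 292 the upstream log2 ratio was -0.05 (SD 0.370 over autosomes), against 0.07 (SD 0.0715) in the 4042 CpG-poor promoters without a run. The difference was -0.13 with an SD of 0.364. The median GC content was 42.8% with and 50.5% without a run, and the median score 14.8 and 17.3.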
